A study of Mus musculus with 2 samples.

Results

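The 10 genes described here carry signals from cytokine receptors to the nucleus or end them, namely Stat3, Stat4, Stat5a, Stat5b and Stat6, the kinase gene Jak3, and the feedback genes Socs1, Socs2, Socs3 and Cish. They were chosen by name and found by their Ensembl identifiers, 10 of the 43346 genes in the tables, and all 10 were measured in both libraries. The RNA was spleen poly(A) RNA of mixed-sex C57BL/6J littermates, an inbred laboratory strain, taken as adults at 8 weeks. Library 2 and library 1, biological replicates of a single group, are the only samples, so the data give levels and the spread between libraries and no comparison of conditions. The labels do not tie animals to libraries, so an SD covers only how far the 2 samples lie apart, possibly for technical reasons, and a p-value measures departure from counting error. Health state is given as unknown and sex was not recorded for either library.

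Type I and type II cytokine receptors have no kinase of their own. Janus kinases (JAKs) bound to their tails phosphorylate the receptor and then STAT proteins, which pair, enter the nucleus and bind DNA at palindromic sites. JAK3 serves receptors that contain the common gamma chain, encoded by Il2rg, among them the receptors for IL-2, IL-4, IL-7 and IL-21. Proteins of the SOCS family, CISH included, are made from genes that STATs themselves switch on, and they bind the receptor or the kinase and damp the signal. In the spleen these genes serve lymphocytes among other cells. STAT4 is known for IL-12 responses of T and NK cells, and STAT6 for IL-4 and IL-13. STAT5 is known for IL-2 and IL-7, and STAT3 for IL-6, IL-10 and IL-21.

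Genes received 51393345 expected counts in library 2 and 49686344 in library 1. TPM is used for levels, since it is corrected for transcript length, and TMM-scaled count ratios are used for differences. Markers of B cells, T cells, NK cells, red pulp and marginal zone macrophages, neutrophils, erythroid cells, platelets and plasma cells were all present in both libraries, and none stood at 0. Cd79a, the B cell marker of highest level, had 863 TPM in library 2 and 1130 TPM in library 1. Markers of pancreatic acinar cells were also abundant, and Ctrb1 reached 21059 TPM in library 2 against 36979 in library 1. Ratios also moved with base composition over all genes. The median log2 ratio was 0.22 in the tenth of genes with the lowest GC content and -0.21 in the tenth with the highest.

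Stat6, Stat3 and Jak3 stood highest, and Stat4 lowest. The means ran over a 22.5-fold range, 4.98 to 112 TPM, with a median of 31.3 TPM. Stat6 had 115 TPM in library 2 and 109 TPM in library 1, or 112 ± 4.75 TPM (SD, n = 2). Both values lay above every other member in either library, and the gene stood at the 93.3rd percentile of detected genes. Stat3 had 58.8 TPM in library 2 and 73.0 TPM in library 1, and Jak3 had 56.2 and 73.0 TPM in the same order. Their values overlapped, so neither can be placed above the other. The ratio of Stat6 to Stat3 was 1.96 in library 2 against 1.49 in library 1. Stat6 to Stat4 gave 21.5 and 23.7.

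Below these came Socs1, with 31.2 TPM in library 2 and 64.3 TPM in library 1, and the paralogs Stat5b and Stat5a. Stat5b had 29.8 TPM in library 2 and 40.7 TPM in library 1, and Stat5a had 22.3 and 32.3 TPM. Socs3 had 19.8 TPM in library 2 and 27.9 TPM in library 1. From Stat3 to Socs3 every neighbour in the order overlapped the next over the libraries. A gap followed, since both values of Socs3 lay above both of Socs2, which had 9.26 TPM in library 2 and 11.6 TPM in library 1. Cish, at 8.40 and 12.03 TPM, overlapped Socs2. Stat4 had 5.37 TPM in library 2 and 4.59 TPM in library 1, below all the others. Ranks 1 to 7 and rank 10 were held by the same genes in each library, while Socs2 and Cish exchanged places. In a tissue mixture, fewer cells of a type and less RNA per cell cannot be told apart in these levels.

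**Figure D1:**
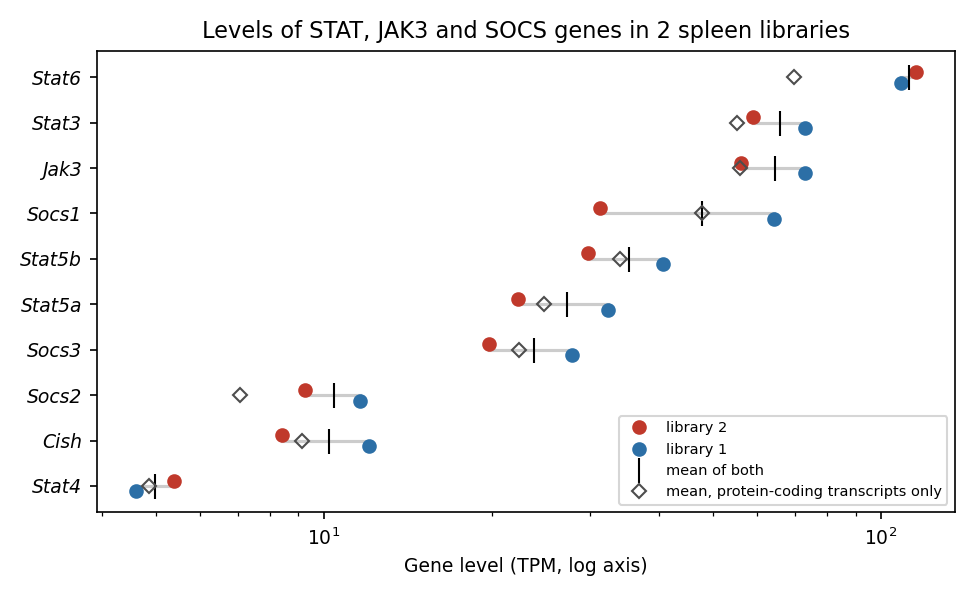
Level of each gene in TPM on a log axis, with library 2 (red) and library 1 (blue) as points, their mean as a bar, and the mean over protein-coding transcripts alone as a diamond. Stat6 stands apart at 115 and 109 TPM, Stat4 is lowest at 5.37 and 4.59 TPM, and the widest gap between libraries is that of Socs1, at 31.2 and 64.3 TPM.

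The libraries differed beyond counting error for 9 of the 10 genes. By the exact two-sided binomial test of expected counts, with Benjamini-Hochberg adjustment over all 17547 genes tested, 2 members were higher in library 2 and 7 were lower. The same test passed for 50.7% of all genes, with 24.1% higher and 26.6% lower, and for 73.2% of genes with at least 2000 counts, and the count of 9 is to be read against these shares. No member passed a 2-fold difference, a limit that 7.25% of all genes passed. Among genes at 1 TPM or more in both libraries, where all 10 members belong, 1.93% passed it. The median log2 ratio of the members was -0.28, beside 0.0051 over all tested genes and -0.059 over those with at least 2000 counts. Over detected genes the median TPM fold was 0.903, a shift of -0.15 on the log2 scale, so a TPM fold mostly lies lower than the scaled ratio.

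Members have GC contents of 44.4% (Stat4) to 60.2% (Jak3), and the trend of ratios with GC touches each of them. With trends of GC and length removed, the median ratio of the members was -0.19 and the same 9 passed, 7 lower and 2 higher, beside 46.3% of all genes. Jak3 was moved most, to -0.065. Stat4 stood at 0.29, Stat6 at 0.14, Stat3 at -0.17, Stat5a and Stat5b at -0.21 each, Socs3 at -0.29 and Cish at -0.26. GC contents are those of a newer gene model, which for Socs1 is longer than the transcript in the files.

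Among the STAT genes, Stat4 and Stat6 were the ones that rose. Stat4 had 726 counts in library 2 and 537 in library 1, a fold of 1.33 (95% counting interval 1.19 to 1.49; log2 ratio 0.41; exact binomial test, adjusted p = 1.7e-06). Its ratio lay at the 90.9th percentile of all detected genes, and its log2 ratio was 0.29 with the GC and length trends removed. Stat6 had 13569 counts in library 2 and 12637 in library 1, a 1.06-fold difference (1.03 to 1.09; exact binomial adjusted p = 9.8e-06) that the depth resolves although it is small. Stat3 had 11981 counts in library 2 and 13616 in library 1, at a log2 ratio of -0.20 (exact binomial adjusted p = 3.3e-28). Stat5a and Stat5b fell by nearly the same factor, 0.808-fold (0.775 to 0.843) for Stat5a and 0.807-fold (0.783 to 0.832) for Stat5b. Their counts were 3921 in library 2 and 4788 in library 1 for Stat5a, and 7482 and 9151 for Stat5b (exact binomial adjusted p = 5.3e-22 for Stat5a and 7.1e-42 for Stat5b).

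Jak3 had 10606 counts in library 2 and 12555 in library 1, a fold of 0.834 (0.813 to 0.856) and a log2 ratio of -0.26 (exact binomial adjusted p = 6.0e-42). Its partner receptor gene Il2rg went the other way, at 162 TPM in library 2 against 154 TPM in library 1 (log2 ratio 0.21; exact binomial adjusted p = 1.1e-26). Removal of the GC and length trends left Jak3 at -0.065 and Il2rg at 0.15. The TPM ratio of Il2rg to Jak3, with the trends kept in, was 2.89 in library 2 and 2.10 in library 1.

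Socs1, Socs3 and Cish were lower in library 2, Socs2 did not pass, and Socs1 showed the largest difference of the 10. Socs1, whose product blocks JAK activity and restrains interferon gamma signals, had 1686 counts in library 2 and 3117 in library 1. Its fold was 0.534 (0.503 to 0.567; log2 ratio -0.90; exact binomial adjusted p = 2.1e-98), and 1.2% of detected genes had a lower ratio. It was the only member past a 1.5-fold difference, which 18.5% of all genes passed, and stood at -0.75 with the GC and length trends removed. Socs3, which acts on receptors of the gp130 family, had 2257 counts in library 2 and 3036 in library 1, at 0.734-fold (0.695 to 0.775; exact binomial adjusted p = 6.9e-28). Cish had 1258 counts in library 2 and 1610 in library 1, at 0.771-fold (0.716 to 0.831; exact binomial adjusted p = 3.0e-11). Socs2, known for restraining growth hormone signals, had 359 counts in library 2 and 395 in library 1, and its fold of 0.897 had an interval that held 1 (0.776 to 1.04; exact binomial adjusted p = 0.22). At that depth a difference of this size was not detectable.

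Ratios within a library do not depend on its scaling. The TPM ratio of Socs1 to Socs3 was 1.58 in library 2 and 2.31 in library 1, whereas that of Socs3 to Cish was 2.36 and 2.32. Stat6 to Socs1 was 3.69 in library 2 and 1.69 in library 1.

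**Figure D2:**
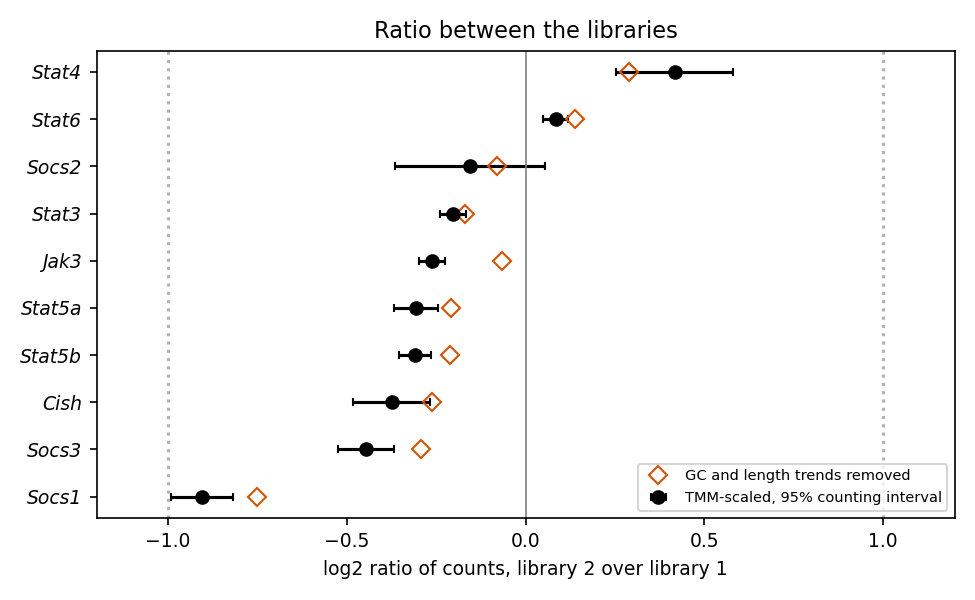
Log2 ratio of expected counts, library 2 over library 1, with 95% counting intervals for the scaled ratio (black) and the value after removal of GC and length trends (orange diamonds), and dotted lines at a 2-fold difference. Stat4 and Stat6 lie above 0, the interval of Socs2 crosses 0, and Socs1 lies lowest at a fold of 0.534.

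Cell type markers also differed between the libraries, and their counts are to be read against the shares over all genes. Those shares were 24.1% higher and 26.6% lower, with 73.2% called among genes with at least 2000 counts. All 5 red pulp macrophage markers were higher in library 2 (median log2 ratio 0.83, summed level 517 TPM in library 2 and 300.3 TPM in library 1), as were all 3 marginal zone macrophage markers (1.35, 76.8 and 48.4 TPM). Of the erythroid markers 4 were higher and 1 lower (0.89), with sums of 89012 TPM in library 2 and 56628 TPM in library 1. Of the T cell markers 4 were higher and none lower (0.20, 267 and 271 TPM), and of the B cell markers 4 were higher and 1 lower (0.12, 1919 and 2140 TPM). NK cell markers had 2 higher and 1 lower (0.074, 117 and 121 TPM), neutrophil markers 4 and 1 (0.29, 246 and 275 TPM), and acinar markers 4 and 1 (0.062, 56983 and 74497 TPM). All 3 plasma cell markers were lower (-0.37, 479 and 580 TPM), and platelet markers split 1 to 1 (0.013, 466 and 526 TPM). After removal of the GC and length trends, NK cell markers had 1 higher and 1 lower, neutrophil markers 3 and 1, and platelet markers 1 and 2. Counts of the other marker lists stayed the same, beside 22.6% higher and 23.7% lower over all genes. The part of these markers in the ratios of the STAT and SOCS genes was not tested.

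The tables list 61 transcripts for the 10 genes, of which 9 had 0 counts in both libraries. At least 5% of the gene's TPM in either library was held by 30, and for 14 of these the deposited TPM intervals of the libraries did not overlap, 10 lower and 4 higher in library 2. The same rule over 29440 transcripts of detected genes found 33.6% apart, 24.5% lower and 9.09% higher. No label or file header states the level of those intervals. Transcript values are model estimates, so a counting interval does not cover their error.

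For Stat6 the level depends on which transcripts are counted. The coding transcript Stat6-201, of 837 residues, held 56.0% of the gene's TPM in library 2 and 62.5% in library 1. Its level of 64.7 TPM in library 2, against 67.9 TPM in library 1, was 0.953-fold with deposited intervals apart, while its expected counts were 12205 and 11643. Stat6-202, of 113 annotated residues, had 6.78 TPM in library 2 and was listed at 0 in library 1. Short retained-intron transcripts together held 38.1% and 37.5% of TPM but 8.97% and 7.86% of the gene's expected counts, since TPM divides by length. On coding transcripts alone Stat6 had 71.5 TPM in library 2 and 67.9 TPM in library 1, and stayed first in the mean, ahead of Jak3 at 55.8 ± 10.6 TPM and Stat3 at 55.2 ± 10.7 TPM (SD, n = 2 each). Retained-intron transcripts held 18.9% of Stat3 TPM in library 2 and 14.0% in library 1, but 2.92% and 2.32% of its counts. Stat6 overlaps the end of Nab2 on the opposite strand by 40 bases, and Nab2 had 27.4 and 29.5 TPM in libraries 2 and 1. For Jak3 the shares of retained-intron transcripts were alike on both scales, 14.0% and 13.3% of TPM beside 12.2% and 11.1% of counts.

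**Figure D3:**
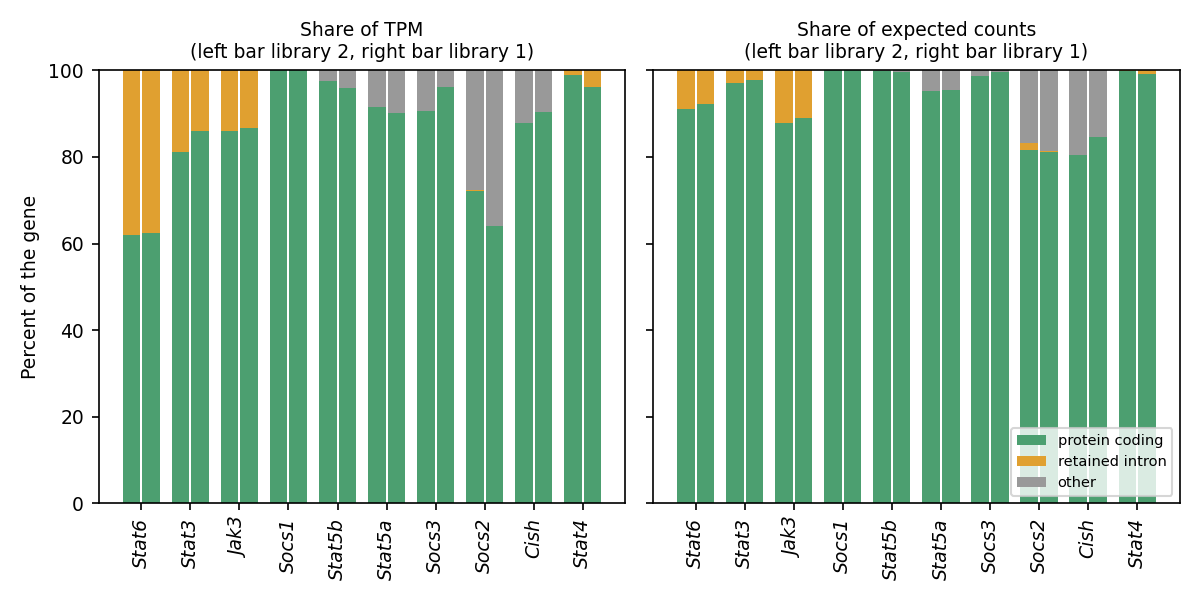
Share of each gene held by protein-coding (green), retained-intron (orange) and other transcripts (grey), by TPM at left and by expected counts at right, with library 2 as the left bar of each pair and library 1 as the right bar. Retained-intron transcripts hold 38.1% and 37.5% of Stat6 TPM but 8.97% and 7.86% of its counts.

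Stat3 is spliced into an alpha form and a shorter beta form that lacks the C-terminal activation domain. Stat3-203 encodes the alpha form of 770 residues and Stat3-202 the beta form of 722 residues. The forms are shown over their point of difference because it decides which protein is made. Exon 23 of the alpha transcript begins with 50 bases that the beta transcript skips (chr11:100889541-100889590, GRCm38, minus strand, coding), given in capitals with 20 bases on either side.
Stat3-203 alpha: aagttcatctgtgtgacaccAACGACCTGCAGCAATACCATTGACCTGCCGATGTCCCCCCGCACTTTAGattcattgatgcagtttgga
Stat3-202 beta: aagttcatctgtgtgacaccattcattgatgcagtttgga

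Stat3-203 had 36.6 TPM in library 2 and 57.0 TPM in library 1, or 62.1% and 78.1% of the gene. Stat3-202 had 10.4 TPM in library 2 (deposited interval 9.41 to 11.3) and 4.87 TPM in library 1 (4.16 to 5.56), or 17.6% and 6.67% of the gene. The beta transcript was thus 2.13-fold in library 2 by TPM while the alpha transcript was 0.641-fold. Stat3-202 also ends 1712 bases beyond Stat3-203, and its first exon is shorter, so its estimate draws on reads of those parts as well as on the splice in exon 23. Which of these features set the difference was not tested.

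Stat4 had 2 coding transcripts of 748 residues each that differ in where they start. Stat4-202 starts upstream and Stat4-201 starts 21.095 kb downstream on chromosome 1. The 250 bases before the RefSeq start nearest to each are shown, since the estimated shares of the transcripts differed between the libraries. They come from the RefSeq table of GRCm38.p6, plus strand, at chr1:51986898-51987147 and chr1:52007990-52008239, with GC contents of 51.6% and 44.0%. The second window ends at 52008239, a few bases before the annotated start of Stat4-201 at 52008243.
Stat4 upstream start: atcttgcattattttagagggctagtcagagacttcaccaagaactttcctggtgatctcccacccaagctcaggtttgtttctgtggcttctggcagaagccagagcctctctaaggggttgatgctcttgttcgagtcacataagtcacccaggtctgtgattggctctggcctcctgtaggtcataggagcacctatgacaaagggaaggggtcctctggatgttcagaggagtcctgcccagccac
Stat4 downstream start: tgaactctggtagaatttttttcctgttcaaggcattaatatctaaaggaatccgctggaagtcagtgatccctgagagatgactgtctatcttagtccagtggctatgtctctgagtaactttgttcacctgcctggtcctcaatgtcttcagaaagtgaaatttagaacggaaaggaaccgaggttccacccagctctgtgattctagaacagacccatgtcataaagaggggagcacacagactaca

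Stat4-201 had 2.07 TPM in library 2 (deposited interval 1.56 to 2.70) and 0.81 TPM in library 1 (0.452 to 1.23), or 38.5% and 17.7% of the gene. Stat4-202 had 3.24 TPM in library 2 and 3.6 TPM in library 1, with overlapping intervals, or 60.3% and 78.4%. The downstream transcript received 304 counts in library 2 and 108 in library 1, and the upstream transcript 421 and 425. The higher count of Stat4 in library 2 therefore sits in the estimate for Stat4-201. Whether the libraries differed in use of the starts themselves was not tested.

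The coding transcripts of Jak3 all encode 1100 residues, and the main pair start 1.255 kb apart. Jak3-202 held 59.1% of TPM in library 2 and 50.4% in library 1, with overlapping intervals, and Jak3-201 held 24.1% and 30.1%. Jak3-201 had 13.6 TPM in library 2 and 21.9 TPM in library 1, and its intervals were apart. Jak3 shares 404 exonic bases on the same strand with Insl3, a hormone gene of testis and ovary, which had 47.1 TPM in library 2 and 63.7 in library 1. Expected counts of both genes therefore depend on how shared reads were divided.

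Socs1 has 1 transcript, Socs1-201, of 212 residues, so its gene and transcript values are the same. Socs3-201, of 225 residues, held 90.5% of TPM in library 2 and 96.2% in library 1, and 98.7% and 99.5% of counts. Cish was split between Cish-201, of 257 residues, at 50.5% and 58.1%, and Cish-204, of 62 annotated residues, at 37.1% and 32.4%. Cish-201 had 4.24 TPM in library 2 and 6.99 TPM in library 1 with intervals apart, whereas those of Cish-204, at 3.12 and 3.89 TPM, overlapped. Socs2 was spread most widely. Its leading transcript by TPM, Socs2-208, is 497 bases long and held 33.2% in library 2 and 21.6% in library 1, while Socs2-201, of 2222 bases and the full 198 residues, held 20.1% and 19.3% of TPM but 55.3% and 54.9% of counts.

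Stat5b, Stat5a and Stat3 lie side by side in 158.81 kb of chromosome 11. Stat5b (chr11:100780731-100850724, minus strand) and Stat5a (chr11:100859351-100885169, plus strand) point away from each other across a gap of 8.626 kb, and Stat3 (chr11:100885098-100939540, minus strand) runs toward Stat5a. The ends of Stat5a and Stat3 overlap by 72 bases on opposite strands. Of the Stat3 transcripts only Stat3-202 reaches into this overlap, since Stat3-203 ends at 100886810, so reads there bear on the Stat3-202 estimate. The libraries kept strand, per the labels, but no label or header states whether counting used it, so reads in the overlap may be credited to either gene.

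**Figure D4:**
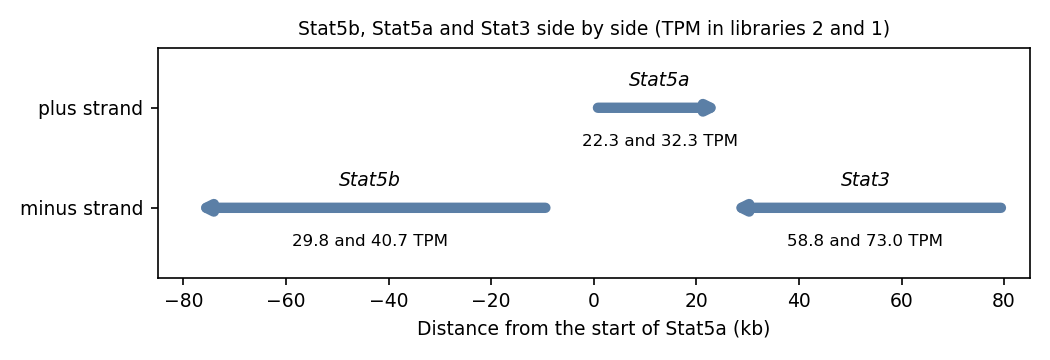
Map of Stat5b, Stat5a and Stat3 by distance in kb from the start of Stat5a, with arrows showing the direction of transcription and the TPM of library 2 and then library 1 under each gene. Stat5b and Stat5a diverge across 8.626 kb, and Stat5a and Stat3 meet at their ends.

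Stat5a and Stat5b arose by duplication and their coding sequences matched at 90.7% of 2343 aligned bases. The longest identical stretch is 324 bases, coding positions 571 to 894 counted from the first base of the start codon. Of the 76-base windows in the leading transcripts, 381 are shared, 10.4% of those in Stat5a and 7.64% of those in Stat5b. The end of that stretch and the bases after it are shown, coding positions 855 to 974 in each. A read that lies wholly in identical bases, on either side of the unlike base, matches both genes. The capital marks the 1 unlike base in 120.
Stat5a: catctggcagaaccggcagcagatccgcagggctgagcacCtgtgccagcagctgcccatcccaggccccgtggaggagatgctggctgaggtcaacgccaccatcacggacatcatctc
Stat5b: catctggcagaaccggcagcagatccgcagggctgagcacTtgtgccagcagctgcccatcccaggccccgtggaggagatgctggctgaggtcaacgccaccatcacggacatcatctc

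Neither gene had a whole number of expected counts, but their sums were whole, 11403 in library 2 and 13939 in library 1. The deposited posterior SD was 11.2 counts in library 2 and 12.8 in library 1 for either gene, below the square root of the count of Stat5a, 62.6 and 69.2. Division of shared reads thus adds less to the error of these genes than counting does. By TPM the ratio of Stat5b to Stat5a was 1.33 in library 2 and 1.26 in library 1. Each had a dominant coding transcript, Stat5b-201 at 95.6% and 93.9% and Stat5a-202 at 85.9% and 80.3%.

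Promoters of 9 of the 10 genes were matched in the RefSeq table, and Socs2, which had no entry, was not searched. The 12 windows each ran from 250 bases before to 50 bases after a start. The letters TTCNNNGAA, the palindromic core to which STAT pairs bind and which reads alike on both strands, were in 2 of the 12, beside 8.30% of 32851 promoters of all genes. One was that of Socs3, shown with its match in capitals, 154 bases before the RefSeq start at 117969366 (chr11:117969367-117969616, GRCm38.p6, minus strand). The annotated start of Socs3-201 lies further downstream, at 117969186.
Socs3 promoter: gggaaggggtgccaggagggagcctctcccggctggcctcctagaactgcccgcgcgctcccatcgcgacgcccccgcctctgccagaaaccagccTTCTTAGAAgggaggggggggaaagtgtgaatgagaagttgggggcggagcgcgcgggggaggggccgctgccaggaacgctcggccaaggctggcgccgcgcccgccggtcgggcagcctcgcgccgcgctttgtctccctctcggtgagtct
The other was that of Cish, with a pair of matches close together just inside the RefSeq start, at positions 1 and 12 (chr9:107296654-107296683, plus strand). Cish-201 starts upstream of this, at 107296026, and its first exon, which ends at 107297034, holds both matches. Cish-204 starts downstream of them, at 107296710.
Cish start: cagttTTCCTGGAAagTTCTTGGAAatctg
A match is a run of letters and not a measured site. The windows of the other matched genes held no such letters, and with a spacer 1 base longer 6.95% of promoters and none of the members' matched.

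Among further genes of the pathway, Jak1 was higher in library 2 by scaled counts (log2 ratio 0.080), Stat2 and Tyk2 (-0.081) were lower, and Jak2 (-0.068) did not pass. With the GC and length trends removed, Stat2 alone of these kept its call, at -0.095. In that setting Jak1 (0.019) and Tyk2 (0.046) did not pass and Jak2 was lower (-0.18). Stat2, a transducer of type I interferon signals, had 15.5 TPM in library 2 against 18.2 TPM in library 1, at a log2 ratio of -0.11. Jak1, which works beside JAK3 on gamma chain receptors, had 57.5 TPM in library 2 and 62.2 TPM in library 1 and overlapped Jak3. Tyk2 had 37.6 and 43.2 TPM. Jak2, the kinase of the erythropoietin receptor, had 6.92 and 7.88 TPM, and the ratio of Jak3 to Jak2 was 8.12 in library 2 and 9.26 in library 1.

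Of 13 other suppressors, 1 was higher in library 2, 6 were lower and 6 did not pass (median -0.055), beside 24.1% higher and 26.6% lower over all genes. With the GC and length trends removed, 2 were higher and 4 lower, beside 22.6% and 23.7% of all genes. The phosphatase gene Ptpn6 had the highest level, 254 TPM in library 2 against 299.6 TPM in library 1 (log2 ratio -0.11). Ptpn1 had 75.4 and 99.0 TPM (-0.29), and Pias4, an inhibitor of STAT binding to DNA, 33.2 and 42.1 TPM (-0.27). With the trends removed Ptpn1 kept its call at -0.18, whereas Ptpn6 (-0.024) and Pias4 (-0.067) did not pass. Sh2b3, an adaptor that restrains JAK2, had 108 and 231 TPM, but its log2 ratio of -0.31 was 0.082, and passed as higher, with the trends removed. Its estimated length was 3088 bases in library 2 and 2021 in library 1. TPM divides by that length, so the TPM gap of Sh2b3 is wider than its count ratio. The log2 ratio of Socs1, -0.90, lay below that of every gene of that list.

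Of 34 cytokine receptor chains, 10 were higher, 13 lower and 11 did not pass (median -0.079), with 31 at 1 TPM or more in both libraries. The balance turned to 12 higher and 10 lower with the GC and length trends removed, beside 24.1% higher and 26.6% lower over all genes, or 22.6% and 23.7% with trends removed. Il2rg was the most abundant, ahead of Csf2ra (117 TPM in library 2 and 143 TPM in library 1), Il21r (94.2 and 123 TPM) and Il2rb (69.0 and 89.3 TPM). Log2 ratios were -0.16 for Csf2ra, -0.26 for Il21r and -0.25 for Il2rb, and that of Csf2ra was 0.063, passing as higher, with the trends removed. The largest log2 ratios among chains that passed were those of Ifngr2, a chain of the interferon gamma receptor, at 19.29 and 37.96 TPM (-0.85), and of Il5ra, at 0.99 and 0.71 TPM (0.59; exact binomial adjusted p = 0.037). With the trends removed Ifngr2 stood at -0.89, while Il5ra, at 0.46, did not pass. The median of the targets was -0.29: of 16 genes known as STAT targets, 13 were lower in library 2, 2 were higher and 1 did not pass, beside 26.6% lower and 24.1% higher over all genes and 73.2% called among genes with at least 2000 counts. Irf1, a transcription factor of interferon responses, had 99.2 TPM in library 2 and 200.4 TPM in library 1 (-0.60), and the survival gene Mcl1 154 and 253 TPM (-0.50). The estimated length of Irf1 was 1543 bases in library 2 and 1303 in library 1, which widens its TPM gap. The kinase genes Pim1 and Pim2 had 44.4 and 69.7 TPM (-0.53), and 28.6 and 58.6 TPM (-0.96). Myc had 50.3 and 69.2 TPM (-0.27). Bcl2l1, a survival gene that red cell precursors also use, went the other way with 51.6 and 32.6 TPM (0.76). With the GC and length trends removed, 10 targets were lower and 2 higher, and Pim2, which has no GC value, was not tested.

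**Figure D5:**
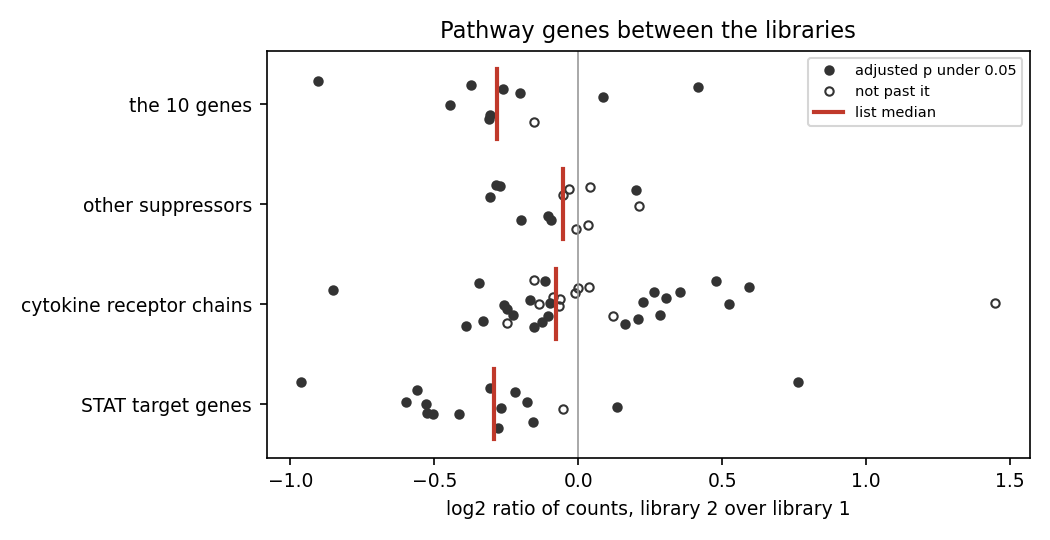
Log2 ratio of expected counts, library 2 over library 1, for the 10 genes and 3 pathway lists, with filled points for genes past an adjusted p of 0.05 by the exact binomial test, open points for the rest and red bars for medians. Medians lie at -0.28 for the 10 genes, -0.055 for other suppressors, -0.079 for receptor chains and -0.29 for the STAT targets.

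The protein-coding genes nearest to Stat6 in level over the 2 libraries, by Euclidean distance in log2(TPM + 1), were Syk (distance 0.030), Stk16 (0.033) and Dgka (0.052). Those nearest to Socs3 were Gfi1b (0.0065), Trmu (0.020) and Pik3c2b (0.024). With 2 libraries such likeness says only that the values were close.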

How the data were processed

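Per the deposited notes, the gene and transcript tables use mm10 and annotation M4, 1 library each, derived from transcriptome alignments. No label or header names the aligner or the quantifier. Expected counts, as deposited, are estimates of reads that need not be whole. The deposited TPM and FPKM values were scaled by the authors over each table, spike-ins included. The deposited transcript tables give each transcript's percent of its gene's TPM. Of counts, 1.24% in library 2 and 0.67% in library 1 belonged to entries that are no genes and were left out.

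Symbols came from GENCODE M21 for 42462 of 43346 genes. Rounded expected counts were scaled by TMM (edgeR 4.0.16, R 4.3.3; factors 0.990 for library 2 and 1.01 for library 1). Log2 ratios use a prior count of 2, folds and 95% intervals none. With 1 library on each side edgeR has no residual degrees of freedom, so an exact two-sided binomial test was run per gene with at least 10 counts, adjusted over all tested genes, threshold 0.05. It compares these libraries, not conditions. It was tested on simulated counts that varied by counting error alone, which cannot show how it behaves with further spread. Intervals reflect counting error alone, because each side holds 1 library. The reads carry no molecular identifiers, so counting error may itself be understated. GC and length trends were removed by lowess (span 0.3). Python 3.11.15, scipy 1.17.1 and Biopython 1.88 were used.

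The members and lists were chosen with earlier results of these data known. Named were all members, those transcripts with at least 5% of TPM that a result turns on, the 4 most abundant genes and the 2 largest ratios among passing genes of each pathway list with fixed partners, the leading gene of a marker list where a level is discussed, and the 3 nearest genes. Overlapping genes were named for position. A result of 1 pathway list is not reported here. Proteins were not compared, and coding DNA was aligned in their place after the files were seen. Splice junction and contig lists on mm9 were not used here.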

Additional observations from a re-analysis of the deposited data

How the results depend on the processing

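DESeq2 1.42.0 size factors, total counts, posterior mean counts, a prior count of 0.5, no count minimum or one of 50, a threshold of 0.01 and removal of the GC trend or of GC and length trends left 9 members past the test, 7 lower and 2 higher. The members' median ratio ran from -0.31 with total counts to -0.19 with GC and length trends removed. Past a fold limit of 1.5 stood 1 member, and none past 2 under any count scaling tried, while the log2(TPM + 0.1) difference of Socs1 was -1.04. Socs2, which did not pass, changed sign to 0.0041 with the GC trend alone removed. The median TPM level of members was 46.1 without haemoglobin, acinar and spike-in entries, against 31.3, and leaving out a library gave 26.1 to 36.5. On protein-coding transcripts alone 6 of 10 genes kept their rank, while FPKM and posterior mean TPM kept all 10, and leaving out a library kept 8 to 10. With the motif's spacer 1 base longer, 0 members' promoters matched. By counts, Socs2-201 led Socs2 in place of Socs2-208. The 2 settings that remove trends, the coding-only levels and the leading transcript by counts were chosen after seeing the data. Depth limits Socs2 and Stat4 most, and 2 libraries allow no estimate of biological spread. No paired analysis was possible because the samples form a single group.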
